A study of Mus musculus with 18 samples.

Results

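The genes of the intermediate progenitor and proneural cascade were followed at the levels of RNA and ribosome footprints in the E15.5 mouse cerebral cortex after deletion of *Fto* or *Mettl3*. The set holds 10 genes: the proneural factors *Neurog1* and *Neurog2*, the intermediate progenitor (IP) transcription factors *Eomes* and *Insm1*, the antiproliferative genes *Btg2* and *Gadd45g*, and the NeuroD factors *Neurod1*, *Neurod4*, *Neurod2* and *Neurod6*. They were taken by gene symbol from 55153 genes in the RNA-seq table and 14348 usable genes in the Ribo-seq table. All 10 were found in both tables, and all 10 passed the filter on low counts in every comparison.

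Cortices of 3 genotypes were compared, with 3 RNA-seq and 3 Ribo-seq libraries each and 18 libraries in all. Controls (Ctrl) were labelled wild type, *F*-cKO mice were Fto f/f;Emx1-cre and *M*-cKO mice were Mettl3 f/f;Emx1-cre, all at embryonic day 15.5. The labels give the strain as C57BL/6, whereas the methods of the study describe the floxed lines as of mixed C57BL/6 and 129 background. Fto removes and Mettl3 writes N6-methyladenosine on RNA. Cre under the *Emx1* promoter acts in the cortical excitatory lineage, so interneurons, endothelial cells and microglia in the same tissue kept the floxed gene. The labels number the libraries of each group as biological repeats 1 to 3, but do not state which animals or pools they came from, so the p-values cover the spread between these libraries. For Ribo-seq, the methods of the study speak of 3 cortical samples from "1 L", which may mean 1 litter. How litters were spread over the genotypes is not stated, so litter and genotype cannot be told apart for the footprints.

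In the developing cortex, radial glia divide at the ventricle and give rise to IPs, which move to the subventricular zone and divide to make excitatory neurons. Neurog1 and Neurog2 are basic helix-loop-helix (bHLH) factors that start the neurogenic program in radial glia. They bind E-boxes, short DNA motifs that read CANNTG, and act upstream of Eomes (Tbr2), the T-box factor that marks IPs, and of the NeuroD factors. Neurod1 marks late IPs and newborn neurons, and Neurod2 and Neurod6 stay on in postmitotic excitatory neurons.

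Total counts were 18504094 to 22592406 in the RNA-seq libraries and 10973699 to 35853227 in the Ribo-seq libraries, where *F*-cKO 2 was the shallowest. *Fto* RNA was 8.37 to 11.2 FPKM in Ctrl, and 3.26, 7.56 and 2.43 FPKM in *F*-cKO 1, 2 and 3, a log2 fold change of −1.21 ± 0.33 (SE, adjusted p = 0.0298, by the quasi-likelihood test of edgeR with the method of Benjamini and Hochberg). Its footprints were 17.6 to 25.9 RPKM in Ctrl and 3.91, 2.11 and 4.04 RPKM in *F*-cKO, all below (−2.68 ± 0.25, adjusted p = 0.350). *Mettl3* RNA was higher in *M*-cKO than in Ctrl (0.50 ± 0.09, adjusted p = 0.00221), while its footprints were lower (−0.55 ± 0.09, adjusted p = 0.0157). Counts over whole genes do not isolate the deleted exons. The RNA-seq library Ctrl 3 stood apart for these genes: 8 of the 10 were lower in it than in both other Ctrl libraries, and the median log2 difference from the mean of those libraries was −0.55, against 0.006 over all genes. Among Ribo-seq libraries, *F*-cKO 1 was above the mean of the other *F*-cKO libraries for 10 of the 10 genes, by a median of 0.57, and above both of them for 7. Ribo-seq Ctrl 3 was below both other Ctrl libraries for 9 of the 10 genes, with a median difference from their mean of −0.294. Ribo-seq *F*-cKO 3 was below both others of its group for 6 genes (−0.606), and *M*-cKO 3 for 7 (−0.315). In *F*-cKO 2 the 5 endothelial markers summed to 289 CPM (read counts scaled to library size), against 11.3 to 24.9 in the other Ribo-seq libraries. The 4 microglial markers summed to 42.8 CPM there (7.38 to 11.8 in the others), the 4 meningeal ones to 208 (8.67 to 115), and the 10 markers of postmitotic excitatory neurons to 6053 (9627 to 12022).

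Per gene length, *Neurod6* and *Neurod2* RNA stood far above the others in Ctrl. *Neurod6* was 320.05 ± 7.36 FPKM (SD, n = 3, fragments scaled by gene length and depth) and *Neurod2* was 247 ± 12.2 FPKM. The next 4 genes were *Neurog2* at 67.1 ± 19.4, *Insm1* at 56.2 ± 8.95, *Gadd45g* at 41.7 ± 10.8 and *Eomes* at 40.4 ± 8.99 FPKM. *Neurog2* and *Insm1* differed by less than the SD of *Neurog2*, and *Gadd45g* and *Eomes* by less than either SD, while *Insm1* and *Gadd45g* differed by more than the SD of each. *Neurod1* was 28.7 ± 3.42 and *Btg2* 12.9 ± 2.54 FPKM. *Neurod4* (1.98 ± 0.49) and *Neurog1* (0.911 ± 0.673) had the lowest levels.

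The DNA just before the transcription starts shows what these genes share and where they differ in the motifs that bHLH factors bind. RefSeq promoter windows (GRCm38.p6, the build named mm10 in the labels) matched 9 of the 10 genes. Of these, 4 hold the E-box CANNTG, on either strand, within the 250 bases before the start, namely *Gadd45g*, *Neurod1*, *Neurod2* and *Neurod6*, compared with 66.2% of all 32851 windows. The core CAGATG was found in *Neurod2* alone (14.4% of all windows) and CAGCTG in *Gadd45g* alone (13.0%), and both also count among the E-boxes. No window of the 9 genes held CAGGTG (17.2% of all windows), and the T-box motif AGGTGTGA was in none either (1.12%). *Gadd45g* also holds CACGTG, another CANNTG word (6.02%). After the sequences had been read, TATAA was searched on the gene's strand within 40 to 16 bases before the start. It was present in *Neurog2*, *Eomes*, *Gadd45g* and *Neurod1*, beginning 27, 28, 27 and 29 bases before the start, and in 3.52% of all windows. A match is a description of the letters and not a bound site. The windows with TATAA, and that of *Neurod2* with CAGATG, are shown 5′ to 3′ along the gene, with CANNTG and TATAA in capitals:
Neurog2, chr3:127632886-127633135, plus strand: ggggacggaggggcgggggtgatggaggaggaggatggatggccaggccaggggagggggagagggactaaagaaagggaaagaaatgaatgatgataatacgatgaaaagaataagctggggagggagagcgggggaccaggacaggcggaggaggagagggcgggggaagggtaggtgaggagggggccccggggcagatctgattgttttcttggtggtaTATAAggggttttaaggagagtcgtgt
Eomes, chr9:118477939-118478188, plus strand: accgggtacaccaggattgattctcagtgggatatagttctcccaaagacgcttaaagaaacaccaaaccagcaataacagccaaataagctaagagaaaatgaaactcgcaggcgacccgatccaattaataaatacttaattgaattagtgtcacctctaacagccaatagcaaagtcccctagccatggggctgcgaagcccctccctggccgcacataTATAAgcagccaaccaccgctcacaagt
Gadd45g, chr13:51846425-51846674, plus strand: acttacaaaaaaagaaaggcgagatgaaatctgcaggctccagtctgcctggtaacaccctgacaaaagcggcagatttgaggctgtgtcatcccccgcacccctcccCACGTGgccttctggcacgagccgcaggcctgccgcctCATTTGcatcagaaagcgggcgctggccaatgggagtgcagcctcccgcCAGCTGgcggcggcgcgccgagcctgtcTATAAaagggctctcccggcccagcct
Neurod1, chr2:79456637-79456886, minus strand: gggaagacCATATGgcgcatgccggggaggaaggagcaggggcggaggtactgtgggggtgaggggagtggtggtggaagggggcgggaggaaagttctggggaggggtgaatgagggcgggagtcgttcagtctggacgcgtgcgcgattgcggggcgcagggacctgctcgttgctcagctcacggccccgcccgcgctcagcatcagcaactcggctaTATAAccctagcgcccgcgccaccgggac
Neurod2, chr11:98329646-98329895, minus strand: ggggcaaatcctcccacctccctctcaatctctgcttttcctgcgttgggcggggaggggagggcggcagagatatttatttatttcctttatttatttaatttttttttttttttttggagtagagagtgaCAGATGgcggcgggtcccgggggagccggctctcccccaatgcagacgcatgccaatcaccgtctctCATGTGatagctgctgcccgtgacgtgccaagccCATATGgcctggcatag

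*Neurog1, Neurog2, Eomes, Btg2 and Gadd45g rose at the RNA level in F-cKO.* All 10 genes had a positive log2 fold change in *F*-cKO, and 5 passed an adjusted p of 0.05, all of them higher: *Neurog1*, *Neurog2*, *Eomes*, *Btg2* and *Gadd45g*. Of all 16944 genes tested, 11.5% were called higher and 21.1% were called in either direction. The median log2 fold change was 0.54 for the 10 genes and −0.01 for all genes. By edgeR none of the 4 NeuroD factors was called, nor was *Insm1*. DESeq2 called 7 genes, with *Insm1* (0.29, adjusted p = 0.0355) and *Neurod1* (0.26, adjusted p = 0.0435) added, and the same 2 genes passed when all 9 RNA-seq libraries were fitted together (adjusted p = 0.0434 and 0.0307). With no filter on low counts *Neurod4* passed too (adjusted p = 0.043).

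*Neurog1* was 2.46, 1.90 and 0.271 CPM in Ctrl 1, 2 and 3, and 4.89, 6.05 and 8.47 CPM in *F*-cKO 1, 2 and 3. Every *F*-cKO library was above every Ctrl library, and the log2 fold change was 2.02 ± 0.49 (adjusted p = 0.0185). *Neurog2* was 168, 182 and 101 CPM in Ctrl and 213, 255 and 284 CPM in *F*-cKO. The groups again did not overlap, and the change was 0.72 ± 0.19 (adjusted p = 0.0249).

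*Eomes* was 184, 196 and 127 CPM in Ctrl and 228, 262 and 291 CPM in *F*-cKO, again with no overlap, and rose by 0.61 ± 0.15 on the log2 scale (adjusted p = 0.0197). *Eomes* lies at chr9:118478186-118486132 and overlaps the long noncoding RNA *Gm33408*, and whether counting used the strand is not stated, so some reads may be shared. *Insm1*, a zinc-finger factor that promotes the formation of basal progenitors, was 183, 199 and 145 CPM in Ctrl and 199, 231 and 217 CPM in *F*-cKO. Its *F*-cKO libraries all lay above Ctrl, but only narrowly, and its value of 0.28 ± 0.11 did not pass (adjusted p = 0.0921).

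The antiproliferative gene *Btg2* (Tis21), which marks progenitors in their neurogenic divisions, was 39.6, 39.6 and 27.7 CPM in Ctrl and 53.1, 61.8 and 71.6 CPM in *F*-cKO. It rose by 0.79 ± 0.15 (adjusted p = 0.00734). *Gadd45g*, a stress-response and cell cycle gene found in newborn IPs, was 49.8, 61.7 and 36.5 CPM in Ctrl and 82.5, 69.2 and 83.2 CPM in *F*-cKO, with a change of 0.65 ± 0.16 (adjusted p = 0.0197). For both genes every *F*-cKO library exceeded every Ctrl library.

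The NeuroD factors act later in the cascade. *Neurod1* was 84.1, 84.3 and 68.5 CPM in Ctrl and 97.8, 97.8 and 89.0 CPM in *F*-cKO (0.25 ± 0.09, adjusted p = 0.0710). *Neurod4*, a bHLH factor of neuronal commitment, gave 0.48 ± 0.20 (adjusted p = 0.120). *Neurod6* gave 0.14 ± 0.06 (adjusted p = 0.120), and *Neurod2* 0.05 ± 0.07 with a 95% interval of −0.10 to 0.21. Across the set, 9 of the 10 genes had all *F*-cKO libraries above all Ctrl libraries, *Neurod2* being the exception, and 22.2% of all genes tested had this order.

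Of the 5 genes, *Btg2* was called with each library left out in turn (largest adjusted p = 0.0297). Without *F*-cKO 2, whose *Fto* RNA was the nearest to Ctrl, 2 genes were called, *Btg2* and *Gadd45g*, while the share called among all genes went from 21.1% to 11.3%, and the values of the others changed little (*Neurog1* 2.07, adjusted p = 0.0509; *Neurog2* 0.71, adjusted p = 0.0733; *Eomes* 0.60, adjusted p = 0.0613). The call of *Neurog2* was also lost without *F*-cKO 3 (0.62, adjusted p = 0.0511) and that of *Gadd45g* without Ctrl 1 (0.67, adjusted p = 0.0522), with values close to those above. Without Ctrl 3, the low library, the same 5 genes were called with smaller values: *Neurog1* 1.55, *Neurog2* 0.50, *Eomes* 0.43, *Btg2* 0.64 and *Gadd45g* 0.47.

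**Figure D1:**
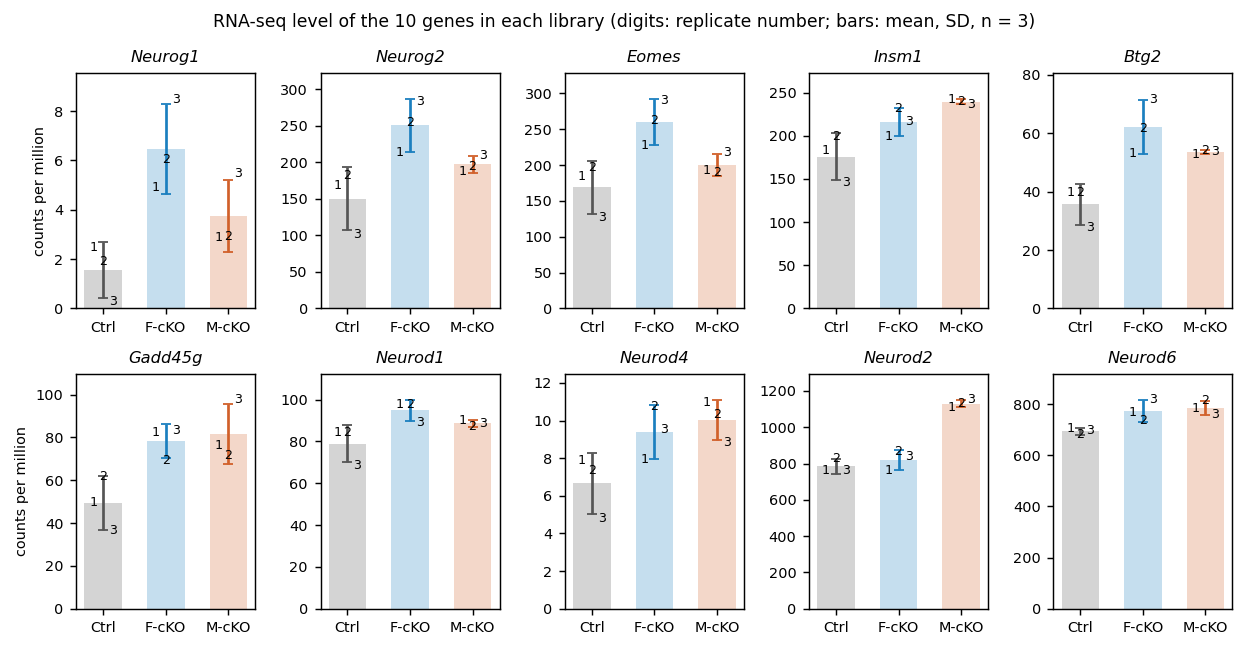
RNA-seq level of each of the 10 genes in CPM (vertical axes, each from 0) in Ctrl, F-cKO and M-cKO. Bars show the mean of 3 libraries with SD and digits mark the replicate number. For Neurog1, Neurog2, Eomes, Btg2 and Neurod1 the F-cKO mean is the highest, and Neurod2 stands out in M-cKO, at 1109 to 1152 against 760 to 866 CPM in the other libraries.

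*In M-cKO 6 genes rose at the RNA level.* All 10 log2 fold changes were again positive, against the same Ctrl libraries as above, and 6 genes were called, all higher: *Insm1*, *Btg2*, *Gadd45g*, *Neurod4*, *Neurod2* and *Neurod6*. Of the 16968 genes tested, 15.5% were called higher and 29.6% in either direction. The median was 0.48 for the set and −0.01 for all genes.

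The clearest of these was *Neurod2*, at 760, 829 and 763 CPM in Ctrl, 761, 866 and 837 CPM in *F*-cKO, but 1109, 1132 and 1152 CPM in *M*-cKO. All *M*-cKO libraries were above the 6 others, and the change from Ctrl was 0.52 ± 0.06 (adjusted p = 0.00012). *Neurod6* moved less, from 706, 679 and 697 CPM in Ctrl to 783, 814 and 758 CPM in *M*-cKO (0.17 ± 0.06, adjusted p = 0.0400). *Neurod4* was 7.87, 7.33 and 4.82 CPM in Ctrl and 11.0, 10.3 and 8.86 CPM in *M*-cKO (0.57 ± 0.18, adjusted p = 0.0340). For *Neurod1*, the *M*-cKO libraries held 90.2, 87.2 and 88.4 CPM, a difference of 0.16 ± 0.08 that did not pass (adjusted p = 0.171).

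*Insm1* was 242, 239 and 237 CPM in *M*-cKO, all above Ctrl and with little spread (0.44 ± 0.10, adjusted p = 0.00580). *Btg2* was 52.7, 54.1 and 53.7 CPM (0.58 ± 0.12, adjusted p = 0.00410) and *Gadd45g* was 76.0, 71.3 and 97.6 CPM (0.72 ± 0.16, adjusted p = 0.00756). In contrast, the *Eomes* libraries, at 192, 189 and 217 CPM, overlapped with Ctrl, and the value of 0.23 ± 0.13 did not pass (adjusted p = 0.216). *Neurog2* (188, 194 and 210 CPM, 0.38 ± 0.16, adjusted p = 0.102) and *Neurog1* (2.88, 2.90 and 5.45 CPM, 1.24 ± 0.49, adjusted p = 0.0773) were above Ctrl in every library without passing. In all, 9 of the 10 genes had every *M*-cKO library above every Ctrl library, *Eomes* being the exception, as had 23.3% of all genes.

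The calls of *Insm1*, *Btg2*, *Gadd45g* and *Neurod2* were kept with each library left out in turn. That of *Neurod4* was lost without Ctrl 3 (0.40, adjusted p = 0.0903), *M*-cKO 1 (0.51, adjusted p = 0.0944) or *M*-cKO 2 (0.56, adjusted p = 0.0923). That of *Neurod6* was lost without any library but *M*-cKO 3, with adjusted p of 0.0728 to 0.115, while its value stayed within 0.15 to 0.20 over all 6 omissions. Of the genes that did not pass, *Neurog2* was called without Ctrl 2 (0.54, adjusted p = 0.0232). Without the low library Ctrl 3 the values were 0.17 for *Neurog2* (adjusted p = 0.129), 0.07 for *Eomes* (adjusted p = 0.594) and 0.78 for *Neurog1* (adjusted p = 0.112).

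*The knockouts were also compared directly.* Between *M*-cKO and *F*-cKO, a comparison that uses no Ctrl library, *Eomes* and *Neurog2* were lower and *Neurod2* was higher in *M*-cKO. Of the 16802 genes tested, 13.1% were called higher, 14.3% lower and 27.4% in either direction, so the calls in the set are near the share over all genes. *Eomes* differed by −0.39 ± 0.09 (adjusted p = 0.0129) and *Neurog2* by −0.35 ± 0.10 (adjusted p = 0.0245). For each, the highest *M*-cKO library was below the lowest *F*-cKO library, at 217 against 228 CPM for *Eomes* and 210 against 213 CPM for *Neurog2*. Of all genes, 22.0% had this order and 21.7% the reverse, which *Neurod2* and *Insm1* had. *Neurod2* differed by 0.46 ± 0.07 (adjusted p = 0.00125). *Gadd45g* (0.06 ± 0.12, 95% interval −0.20 to 0.31) and *Neurod6* (0.02 ± 0.07, −0.13 to 0.16) were close between the knockouts.

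*Neurod2* was called with any library left out. *Eomes* was lost without *F*-cKO 2 (−0.37, adjusted p = 0.0507), *M*-cKO 1 (−0.35, adjusted p = 0.0526) or *M*-cKO 2 (−0.34, adjusted p = 0.0593). *Neurog2* was lost without *F*-cKO 2 (−0.33, adjusted p = 0.0863), *F*-cKO 3 (−0.24, adjusted p = 0.0697), *M*-cKO 1 (−0.30, adjusted p = 0.0925) or *M*-cKO 2 (−0.33, adjusted p = 0.0829). Without *F*-cKO 1, 5 genes were called, 4 of them lower, with *Neurog1* (−0.95, adjusted p = 0.0314) and *Btg2* (−0.32, adjusted p = 0.0189) added. *Neurog1* was also called without *M*-cKO 3 (−1.15, adjusted p = 0.0184). In 1 fit over all 9 RNA-seq libraries, *Neurod2* alone passed.

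Marker genes of dividing cells, IPs among them, and of other cell types were read beside these results. The 6 markers of dividing cells summed to 462 to 575 CPM in Ctrl, to 852 to 1026 CPM in *F*-cKO (6 of 6 called higher) and, for *M*-cKO, to 750 to 766 CPM (5 of 6 called higher), and Ctrl 3 was the lowest library here too. The 7 markers of the ganglionic eminence and interneurons, cells outside the *Emx1* lineage, summed to 419 to 426 CPM for Ctrl, 395 to 531 CPM for *F*-cKO (3 of 7 called higher) and 569 to 764 CPM for *M*-cKO (7 of 7 called higher). Of 8 radial glia markers, 4 were called higher and 2 lower in *F*-cKO, and 3 higher and 2 lower in *M*-cKO, with sums of 1756 to 1911 CPM (Ctrl), 1915 to 2024 CPM (*F*-cKO) and 1464 to 1671 CPM (*M*-cKO). *Fabp7* and *Vim* weigh most in these sums (medians of 555 and 544 CPM over the RNA-seq libraries). In *M*-cKO *Fabp7* changed by −0.97 ± 0.08 (adjusted p = 2.56e-05) but *Sox2* by 0.90 ± 0.08 (adjusted p = 3.19e-05), so the sum does not stand for the whole list. Of 10 markers of postmitotic excitatory neurons, 4 were higher and 2 lower in *F*-cKO, and 4 higher and 3 lower in *M*-cKO (sums 7074 to 7967, 6814 to 8012 and 6912 to 7414 CPM). The 4 meningeal markers summed to 54.7 to 113 CPM (Ctrl), 13.1 to 42.3 CPM (*F*-cKO) and 28.7 to 163 CPM (*M*-cKO), with 2 of 4 called lower in *F*-cKO than in Ctrl and 2 of 4 higher in *M*-cKO than in *F*-cKO. The 6 erythroid markers summed to 380 to 698, 286 to 401 and 388 to 575 CPM in the same order, and 5 of 6 were called higher in *M*-cKO than in *F*-cKO. Against Ctrl, 1 was called higher and 1 lower in *F*-cKO and 1 higher in *M*-cKO. The higher one was in both cases the embryonic globin *Hbb-y*, named after its values were seen (log2 fold changes of 4.90 ± 1.06, adjusted p = 0.0126, and 3.26 ± 0.74, adjusted p = 0.00707). Of 5 endothelial markers, 1 was called lower than in Ctrl for *F*-cKO RNA and 0 for that of *M*-cKO. Of 4 microglial markers, 0 were called in either knockout. The part of all these markers in the results for the cascade was not tested. In such bulk tissue, a change in the number of cells of a type and a change in RNA per cell cannot be told apart.

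*Ribosome footprints.* Ribo-seq counts fragments protected by ribosomes. In *F*-cKO, none of the 10 genes was called by edgeR (smallest adjusted p = 0.730), none had an unadjusted p under 0.05 (1.58% of all genes were higher and 0.635% lower at that level), and DESeq2 called none. No gene in the whole table passed there (0.0% of 14335), and the spread between libraries was wide, with a coefficient of biological variation of 0.379 against 0.103 for RNA-seq. The deleted gene *Fto* itself did not pass by edgeR (−2.68 ± 0.25, unadjusted p = 2.44e-05, adjusted p = 0.350). A missing call in this comparison therefore does not show an unchanged level. *Eomes* footprints were 92.0, 97.2 and 85.3 CPM in Ctrl and 173, 128 and 80.0 CPM in *F*-cKO 1, 2 and 3, so that the *F*-cKO libraries lay on either side of Ctrl. *Neurog2* was 83.6, 76.3 and 60.1 CPM in Ctrl and 137, 94.5 and 60.1 CPM in *F*-cKO, where libraries 1 and 2 lay above Ctrl and library 3 was level with the lowest Ctrl library. The interval for *Eomes*, −0.18 to 1.12, includes its RNA change. *Neurod6* alone did not overlap: it was 876, 884 and 1116 CPM in Ctrl and 795, 681 and 801 CPM in *F*-cKO, all below, with a value of −0.34 ± 0.16 (adjusted p = 0.730). The lowest of them, *F*-cKO 2, is the library with the low sum of neuronal markers, whose part was not tested. All 3 libraries lay below Ctrl for 4.21% of all genes. Without the shallow library *F*-cKO 2, the value for *Neurod6* was −0.27, and no gene of the set was called.

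In *M*-cKO, edgeR called none of the 10 genes from footprints, 5 had an unadjusted p under 0.05, all higher, and DESeq2 called 2, *Neurog2* (0.67, adjusted p = 0.00292) and *Insm1* (0.53, adjusted p = 0.0366). Over all 14314 genes, 14.6% were called, 7.13% higher, and 16.6% were higher at an unadjusted p under 0.05. The median log2 fold change was 0.32 for the set and −0.0003 for all genes.

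*Neurog2* came nearest to the threshold, at 128, 135 and 89.3 CPM in *M*-cKO against 60.1 to 83.6 CPM in Ctrl (0.66 ± 0.19, adjusted p = 0.0549). *Insm1* was 63.0, 66.3 and 38.7 CPM in Ctrl and 86.5, 86.5 and 71.6 CPM in *M*-cKO (0.52 ± 0.20, adjusted p = 0.120). *Eomes* was 121, 129 and 97.4 CPM in *M*-cKO (0.32 ± 0.13, adjusted p = 0.121). For these genes, and for *Neurod1*, *Neurod4* and *Neurod2*, every *M*-cKO library was above every Ctrl library, 6 of 10 genes against 19.9% of all genes.

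*Neurod2* footprints were 360, 328 and 304 CPM in Ctrl and 389, 380 and 488 CPM in *M*-cKO (0.32 ± 0.12, adjusted p = 0.115). *Neurod4* gave 0.40 ± 0.16 (adjusted p = 0.120). *Btg2* and *Gadd45g*, which were called higher from RNA, had footprint values near 0, at −0.04 ± 0.23 and 0.05 ± 0.19. *Neurod6* footprints were 634, 657 and 967 CPM in *M*-cKO, where libraries 1 and 2 lay below Ctrl and library 3 within it (−0.37 ± 0.18, adjusted p = 0.190). Without *M*-cKO 3, 4 genes were called: *Neurog2* (0.82, adjusted p = 0.0170), *Eomes* (0.43, adjusted p = 0.0328) and *Neurod4* (0.53, adjusted p = 0.0403) higher, and *Neurod6* (−0.59, adjusted p = 0.0323) lower. The share called among all genes was then 17.8%. Without Ctrl 3, in turn, none was called, and the values were 0.55 for *Neurog2* (adjusted p = 0.131), 0.29 for *Eomes* (adjusted p = 0.242) and −0.23 for *Neurod6* (adjusted p = 0.496).

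Between *M*-cKO and *F*-cKO, edgeR and DESeq2 called no gene of the set from footprints, and edgeR called none in the whole table (0.0%). *Insm1* (0.65 ± 0.27) and *Neurod2* (0.59 ± 0.24) had an unadjusted p under 0.05, as had 4.98% of all genes in that direction, and were above in every *M*-cKO library, as were 9.21%. The 7 interneuron markers summed to 149 to 223 CPM of footprints for Ctrl, 152 to 181 CPM for *F*-cKO and 248 to 442 CPM for *M*-cKO. The 8 radial glia markers summed to 3194 to 3578 CPM of footprints for Ctrl, 3163 to 4228 CPM for *F*-cKO and 2125 to 2881 CPM for *M*-cKO. Against Ctrl, 1 was called higher there (*Sox2*, 1.12 ± 0.15, adjusted p = 0.00817) and 1 lower (*Fabp7*, −1.065 ± 0.16, adjusted p = 0.0115). Those of dividing cells summed to 1249 to 1328 CPM for Ctrl, 1153 to 2223 CPM for *F*-cKO and 1247 to 1756 CPM for *M*-cKO, and *F*-cKO 1 was the highest. The part of these markers was not tested.

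**Figure D2:**
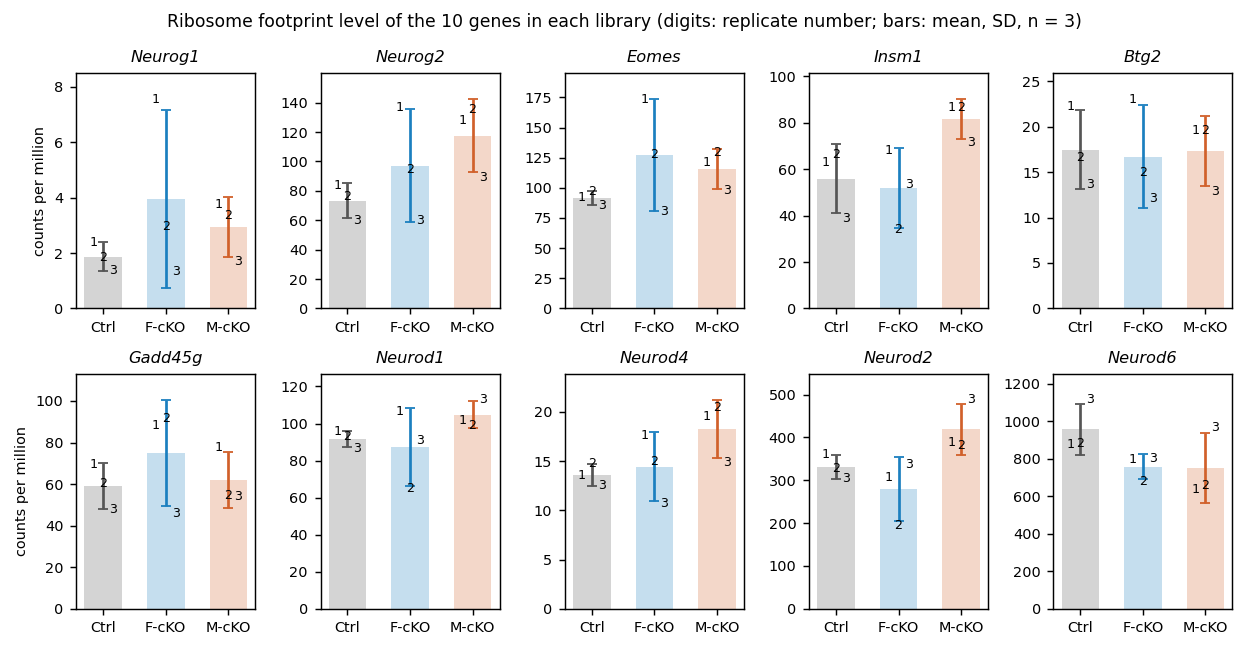
Ribosome footprint level of each of the 10 genes in CPM (vertical axes, each from 0) in Ctrl, F-cKO and M-cKO. Bars show the mean of 3 libraries with SD and digits mark the replicate number. F-cKO libraries spread widely (Eomes 80.0 to 173 CPM), and for Neurod6 the 3 F-cKO libraries lie below the 3 Ctrl libraries.

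*Translation efficiency.* Translation efficiency (TE) was taken as the mean footprint RPKM divided by the mean RNA FPKM of a group. In Ctrl it ran from 0.393 for *Insm1* to 2.51 for *Neurod4*, with 0.519 for *Neurod2*, 0.599 for *Neurog2*, 0.604 for *Btg2*, 0.666 for *Eomes*, 1.43 for *Neurod1*, 1.47 for *Gadd45g*, 1.49 for *Neurog1* and 1.70 for *Neurod6*. The median of 11248 genes with an RNA level of at least 1 FPKM was 0.856. *Neurod2* and *Neurod6*, the members with the highest RNA levels, thus lay on either side of it, at the 33.6th and 78.4th percentile. *Neurod4* and *Neurog1* rest on RNA levels near or below 2 FPKM, and with the mean of the ratios of same-numbered libraries *Neurog1* stood highest in Ctrl, at 2.89 ± 2.93 (SD, n = 3), above *Neurod4* by less than this SD.

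The TE of *Neurod6* was lower in both knockouts, at 1.18 (*F*-cKO) and 1.15 (*M*-cKO), without a called difference. In the edgeR test of the interaction of assay and genotype, which compares the footprint with the RNA change, it differed by −0.52 ± 0.15 in *F*-cKO (unadjusted p = 0.00671, adjusted p = 0.467), against −0.48 ± 0.20 in *M*-cKO (unadjusted p = 0.0330, adjusted p = 0.212). Both values use the same Ctrl libraries. Without the Ribo-seq library *M*-cKO 3 the *M*-cKO value was −0.73 (adjusted p = 0.0172).

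*Btg2* went from 0.604 in Ctrl to 0.324 in *F*-cKO (−0.91 ± 0.36, adjusted p = 0.560), with 0.388 in *M*-cKO (−0.56 ± 0.29, adjusted p = 0.307). *Gadd45g* had 1.14 in *F*-cKO, and 0.915 in *M*-cKO gave a difference of −0.62 ± 0.30 (adjusted p = 0.277). *Neurog2* and *Eomes* had 0.466 and 0.586 for *F*-cKO, against 0.713 and 0.695 for *M*-cKO.

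No TE difference of the set was called by edgeR or DESeq2 in any of the 3 comparisons. In *F*-cKO all 10 values were negative (median −0.40, all genes −0.0018), and 2 had an unadjusted p under 0.05, both lower, as had 5.83% of all genes, while none was called in the whole table (0.0%). RNA-seq Ctrl 3, with low RNA of these genes, and the wide *F*-cKO footprint libraries enter this comparison. Their part was not tested beyond leaving out 1 library at a time. Without RNA-seq Ctrl 3 the value of *Eomes* was −0.02 and that of *Neurog2* −0.15, and that of *Neurod6* stayed at −0.52. Ribo-seq Ctrl 3, also low for 9 of the 10 genes, stayed in that fit. The omission therefore does not show what the Ctrl 3 libraries of both assays contribute together. With any 1 library left out, *Eomes* ran from −0.51 (without Ribo-seq *F*-cKO 1) to 0.06 (without Ribo-seq *F*-cKO 3), where it was positive, *Neurog2* from −0.73 to −0.11 without the same libraries, and *Neurog1* from −1.99 to −0.55. The other 9 genes stayed negative. In *M*-cKO 4 values were positive and 6 negative, and 1 had an unadjusted p under 0.05, against 2.07% of 14328 genes called and 8.86% lower at an unadjusted p under 0.05. Between *M*-cKO and *F*-cKO 9 of the 10 values were positive (median 0.30), none with an unadjusted p under 0.05 (2.21% of all genes were higher and 1.59% lower at that level), and edgeR called none of all genes (0.0%).

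**Figure D3:**
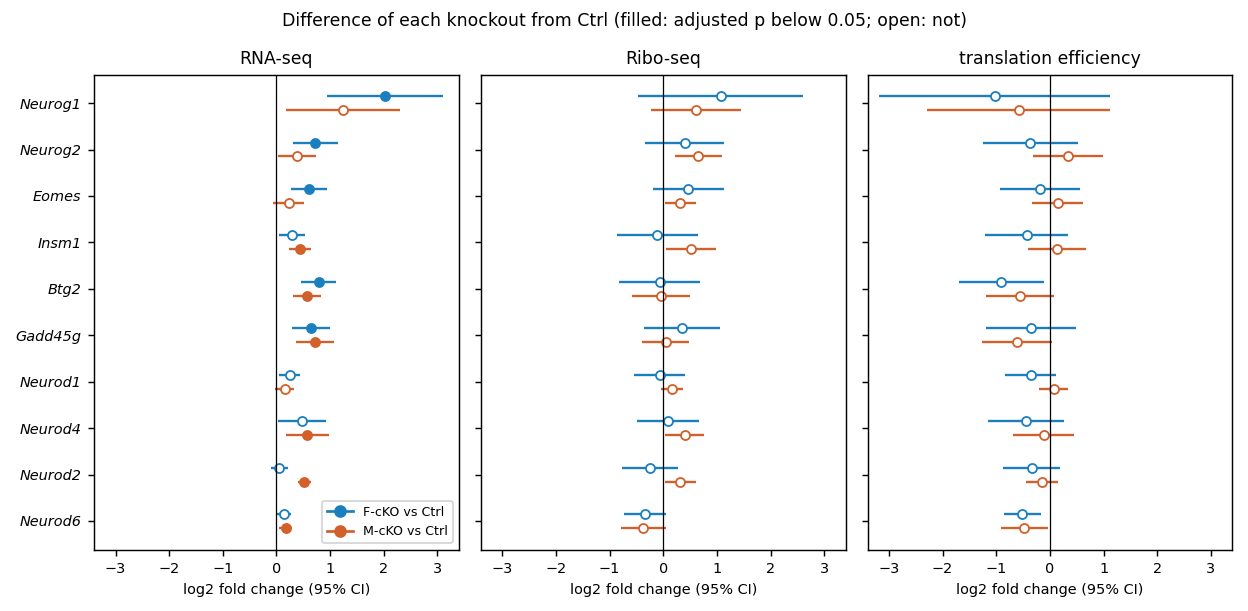
Log2 fold change of each knockout against Ctrl (horizontal axes) with 95% confidence intervals for the 10 genes (rows) in RNA-seq, Ribo-seq and translation efficiency. Filled points passed an adjusted p of 0.05 and open points did not. Filled points appear for RNA-seq alone, 5 for F-cKO and 6 for M-cKO. The intervals for footprints and translation efficiency are wider than for RNA, save those of Neurog1 and Neurod4 footprints in M-cKO.

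*Ratios within a library.* The ratio of 2 genes in the same library does not depend on depth or scaling. With 3 libraries a group, the smallest two-sided p of an exact permutation test is 0.1, so these ratios are given without a test. *Neurod6* counts per *Eomes* count, a late gene against an early one, were 3.83, 3.46 and 5.49 in Ctrl RNA, 3.36, 2.80 and 2.81 in that of *F*-cKO, and 4.07, 4.30 and 3.49 in that of *M*-cKO. The *F*-cKO libraries were all below Ctrl, and *M*-cKO overlapped with it. From footprints the ratio was 9.51, 9.09 and 13.1 (Ctrl), 4.60, 5.33 and 10.02 (*F*-cKO), and 5.24, 5.09 and 9.92 (*M*-cKO). In each knockout, libraries 1 and 2 lay below all of Ctrl and library 3 within its range.

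*Neurod2* per *Neurod6*, 2 factors of postmitotic neurons, was 1.08, 1.22 and 1.10 in Ctrl RNA, 0.994, 1.18 and 1.02 in that of *F*-cKO, and 1.42, 1.39 and 1.52 in that of *M*-cKO. From footprints it was 0.411, 0.371 and 0.272 (Ctrl), 0.385, 0.285 and 0.420 (*F*-cKO), and 0.613, 0.579 and 0.505 (*M*-cKO). In both assays the *M*-cKO libraries were above the other 6. *Neurog2* per *Eomes* was 0.912, 0.928 and 0.799 in Ctrl RNA, 0.935, 0.973 and 0.978 in that of *F*-cKO, and 0.977, 1.02 and 0.967 in that of *M*-cKO, so that every knockout library was above every Ctrl library. From footprints it was 0.704 to 0.909 (Ctrl), 0.740 to 0.790 (*F*-cKO) and 0.917 to 1.06 (*M*-cKO), with *M*-cKO above the other 6 libraries.

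**Figure D4:**
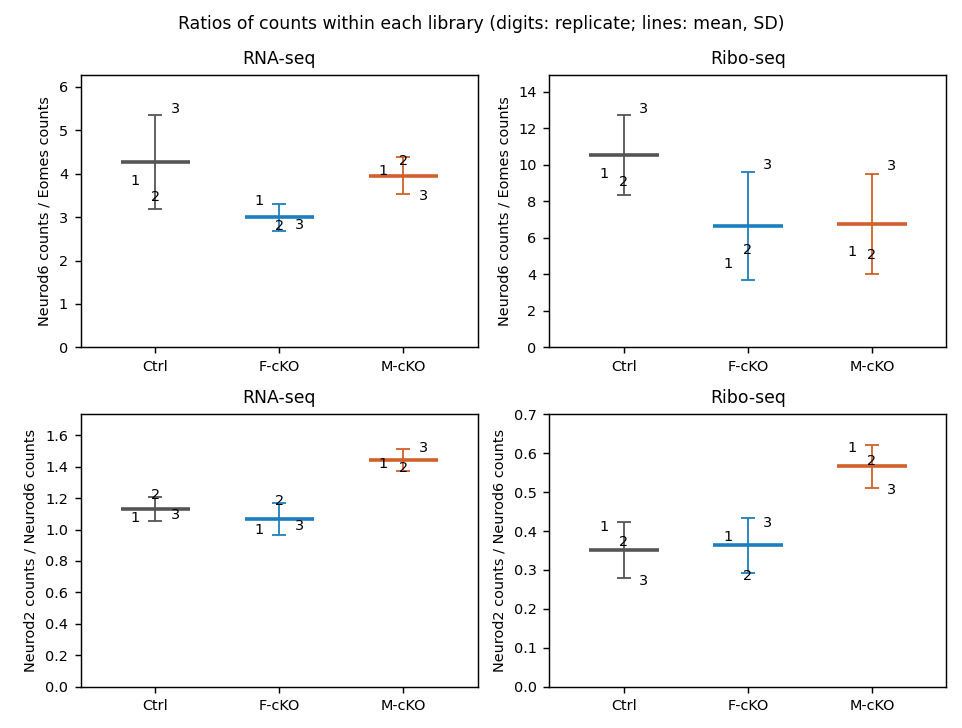
Ratio of Neurod6 to Eomes counts (top) and of Neurod2 to Neurod6 counts (bottom) in each library, from RNA-seq (left) and Ribo-seq (right), with vertical axes from 0. Digits mark the replicate number and lines the mean with SD of 3 libraries. Neurod2 per Neurod6 is 1.39 to 1.52 in M-cKO RNA against 0.994 to 1.22 in the other libraries.

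*Other genes of the cascade.* Of 20 further genes that act with the set, among them Notch ligands, other bHLH factors, SoxC factors and corepressors, 13 were called higher and 1 lower from RNA in *F*-cKO, where their median log2 fold change was 0.37. The shares over all genes were 11.5% and 9.57%. In *M*-cKO 10 were higher and 2 lower, with a median of 0.25, against 15.5% and 14.1% of all genes. The list was chosen with earlier results of these data known, so its counts are a description and no independent test. Its summed RNA level was 3954, 3867 and 3460 CPM in Ctrl 1, 2 and 3, so Ctrl 3 was low here too. *Nhlh1*, a bHLH factor of newborn neurons, rose by 1.06 ± 0.25 in *F*-cKO (adjusted p = 0.0169), and its *M*-cKO change was 1.50 ± 0.21 (adjusted p = 0.000501). The SoxC factor *Sox4* rose by 0.78 ± 0.12 in *F*-cKO (adjusted p = 0.00443), and the corepressor *Cbfa2t3*, a target of proneural factors, by 0.72 ± 0.07 in *M*-cKO (adjusted p = 4.77e-05). Fewer genes were lower: *Bhlhe22*, a bHLH factor of postmitotic neurons, fell by 0.38 in *F*-cKO (SE 0.10, adjusted p = 0.0218), while in *M*-cKO it fell by 0.31 (SE 0.06, adjusted p = 0.00222), and *Mfap4* fell by 0.56 in *M*-cKO (SE 0.18, adjusted p = 0.0324).

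From footprints, none of the 20 was called in *F*-cKO by edgeR, as for all genes. In *M*-cKO 4 were called higher and 1 lower, against 7.13% and 7.50% of all genes. *Cbfa2t3* footprints rose by 0.84 ± 0.16 (adjusted p = 0.0181) and those of the Notch ligand *Dll1* by 0.84 ± 0.19 (adjusted p = 0.0315), and *Mfap4* fell by 0.75 (SE 0.20, adjusted p = 0.0477). For TE, 1 of the 20 was called, *Sox4* in *M*-cKO, which was lower by a log2 difference of −0.71 ± 0.16 (adjusted p = 0.0474), against 0.824% of all genes. Its RNA rose there (0.64 ± 0.07, adjusted p = 8.34e-05) and its footprints differed by −0.13 ± 0.14 (adjusted p = 0.554). Between *M*-cKO and *F*-cKO RNA, 3 of the 20 were higher and 6 lower, against 13.1% and 14.3% of all genes.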

How the data were processed

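Cortical RNA-seq and Ribo-seq libraries were grouped by their titles. For RNA-seq, the authors deposited read counts and FPKM per gene, with alignment by HISAT2 2.0.5. For Ribo-seq, the authors deposited footprint counts and RPKM per gene, made with TopHat2 and HTSeq, per the submitters' processing notes (build mm10). The annotation, the tool behind the RNA-seq counts and its strand setting are not given in the sources used here. Of 54838 genes in the Ribo-seq table, 40490 were blank in all libraries but 1 and were left out.

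Counts were fitted over all genes with edgeR 4.0.16 (R 4.3.3) by the quasi-likelihood test, with TMM scaling, filterByExpr (minimum count 10) and the 6 libraries of the 2 groups compared. TE was tested as the interaction of assay and genotype over 12 libraries, in place of the RiboDiff test of the study. Genes with a Benjamini-Hochberg adjusted p under 0.05 were called, with no fold limit. Levels per library are CPM with TMM factors over the 9 libraries of the assay. Fits were tested on simulated data. DESeq2 1.42.0, RLE scaling, no filter, all libraries in one fit, replicate number as a block and leaving out each library were tried.

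The members, the gene lists and the markers were chosen with earlier results of these data known. Named beyond the 10 members are *Fto* and *Mettl3*, the 2 called genes of the list of 20 with the largest change in each direction for each knockout and assay, and the 5 genes most correlated with *Eomes* and with *Neurod6* in RNA-seq. Outside this rule, *Gm33408* is named as it overlaps *Eomes*, and *Sox4* in *M*-cKO for its TE call. The markers *Hbb-y*, *Fabp7*, *Vim* and *Sox2* were named after their values were seen. CPM, FPKM and RPKM values carry counting error that grows as depth falls.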

Additional observations from a re-analysis of the deposited data

How the results depend on the processing

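Over all alternatives no value of a called gene changed sign. The number of genes called from RNA in *F*-cKO was 8 with no filter on low counts, 7 by DESeq2, 7 in a fit of all libraries and 2 to 6 with 1 library left out. In *M*-cKO RNA it was 9 with no filter and 4 to 6 with 1 library left out. Between *M*-cKO and *F*-cKO it was 4 by DESeq2 and with no filter, 1 in a fit of all libraries and 1 to 5 with 1 library left out. From *M*-cKO footprints it was 2 by DESeq2, 1 with protein-coding genes only (chosen after seeing the data, *Neurog2*), and 0 to 4 with 1 library left out. For TE in *M*-cKO it was 0 to 1. For *F*-cKO footprints, *M*-cKO against *F*-cKO footprints and the other TE comparisons it stayed at 0. With a pseudocount of 1 the TE level of *Neurod4* went from 2.18 to 1.88 in *M*-cKO and from 2.51 to 2.00 in Ctrl. With the mean of same-numbered ratios that of *Neurog1* in Ctrl went from 1.49 to 2.89. The cause of these differences was not tested.

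Over all genes, deviations of samples with the same replicate number had correlations of −0.144 to 0.163 in RNA-seq and −0.278 to 0.156 in Ribo-seq, so the numbers were not taken to pair the libraries. For the 10 genes, however, the median log2 difference from the other libraries of the group was positive for Ribo-seq libraries numbered 1 (0.247 in Ctrl, 0.573 in *F*-cKO, 0.148 in *M*-cKO) and negative for those numbered 3 (−0.294, −0.606 and −0.315). With the replicate number as a block, 4 genes were called from RNA in *F*-cKO (*Neurog1* and *Neurog2* lost, adjusted p = 0.0564 and 0.0513, *Neurod1* gained, adjusted p = 0.0479), 5 in *M*-cKO (*Neurod6* lost, adjusted p = 0.0733) and 4 between the knockouts (*Neurog1* gained, adjusted p = 0.0211), 1 from footprints in *M*-cKO (*Neurog2*, adjusted p = 0.0262), and 0 in *F*-cKO footprints, between the knockouts' footprints and in each TE comparison. With 3 libraries a group and Ribo-seq depths that differ 3.27 times, differences within these intervals were not detectable.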

Other observations

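Over the 9 RNA-seq libraries, Pearson's r of the log2 levels was 0.986 between *Neurog2* and *Eomes* (Spearman's rho 0.933), 0.975 between *Neurog1* and *Neurog2* (0.967) and 0.948 between *Insm1* and *Neurod4* (0.900). It was lowest, at 0.093, between *Eomes* and *Neurod2* (0.217). Of 10182 other genes, those most like *Eomes* were *Fgfr3* (r = 0.988), *Shmt1* (0.988), *Tfap2c* (0.985), *Psrc1* (0.979) and *Knstrn* (0.979). Those most like *Neurod6* were *E2f3* (0.972), *Tmem50b* (0.964), *Rev1* (0.962), *Znrf3* (0.962) and *Igsf11* (0.957). These correlations describe 9 libraries of 3 genotypes that share depth and tissue, with Ctrl 3, low for most of the 10 genes, among them, so a difference between genotypes enters them, and they carry no test.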
